A study of Mus musculus with 18 samples.

Results

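The 39 genes described here encode the proteins that bring glucose into the cell, break it down to pyruvate, turn pyruvate into lactate and export it, or pass pyruvate into the mitochondrion and the pyruvate dehydrogenase complex. They were taken by gene name from a list and found among the 39179 genes of each deposited count table, and 38 of them had enough counts to be tested. The 39th, Pdk4, a pyruvate dehydrogenase kinase, had 0 to 1 count per library. RNA was sequenced from the C57BL6 mouse colon tumour cells known as MC38, kept as 2 lines, 1 with the Apc gene deleted (APC-deleted) and 1 with it present (APC-intact). Each line is represented by libraries without doxycycline and by libraries after 24 h and 48 h of 1 µM doxycycline, an antibiotic used here to switch on a short hairpin RNA against Tdo2, which encodes tryptophan 2,3-dioxygenase. Each of the 6 groups held 3 libraries, 18 in all: APC-deleted untreated, APC-deleted 24 h, APC-deleted 48 h, APC-intact untreated, APC-intact 24 h and APC-intact 48 h. The labels name the inducible hairpin in the titles of the treated samples alone, and do not settle whether the untreated cells carried it. A response given below within a line may therefore compare differently engineered cells, and effects of carrying the hairpin construct, of switching it on and of doxycycline itself cannot be told apart. They describe 1 APC-deleted line and do not say whether it was grown from 1 clone, so the deletion and other differences between the lines cannot be told apart either. The replicates are called biological, with nothing said of separate cultures, so p-values reflect how far these libraries differ among themselves, and part of that spread may be technical.

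Glycolysis splits glucose into pyruvate in the cytosol, with hexokinase, phosphofructokinase and pyruvate kinase as its controlled steps. Pyruvate is reduced to lactate by lactate dehydrogenase and leaves the cell through monocarboxylate transporters, or it enters the mitochondrion through the carrier formed by MPC1 and MPC2 and is oxidised by the pyruvate dehydrogenase complex, which kinases of the PDK family switch off and the phosphatase PDP1 switches on. Many tumour cells make lactate even with oxygen present, and many glycolytic genes are known targets of the hypoxia-inducible factor HIF-1, whose binding sites hold the letters ACGTG or GCGTG, and of MYC, which binds CACGTG.

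Examples were chosen after their values were seen: 3 genes that were lower in the APC-deleted line and 1 that was higher. Their start-site regions are printed to show where these letters stand, not how often they occur. Each is a RefSeq promoter of mouse build GRCm38.p6, 300 bases long, running from 250 bases before the start to 50 after it, 5′ to 3′ on the gene's own strand, and capitals mark ACGTG or GCGTG on either strand. They lie at chr11:120948817-120949116 (+) for Slc16a3, chr7:46845554-46845853 (+) for the first of 2 Ldha promoters, chrX:106186850-106187149 (+) for Pgk1 and chr6:142507908-142508207 (-) for Ldhb.
Slc16a3: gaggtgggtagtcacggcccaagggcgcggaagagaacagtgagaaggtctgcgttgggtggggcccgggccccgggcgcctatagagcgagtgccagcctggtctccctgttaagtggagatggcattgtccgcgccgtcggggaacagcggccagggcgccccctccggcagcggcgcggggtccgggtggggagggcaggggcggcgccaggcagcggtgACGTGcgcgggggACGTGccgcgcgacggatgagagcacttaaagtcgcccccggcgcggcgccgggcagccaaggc
Ldha: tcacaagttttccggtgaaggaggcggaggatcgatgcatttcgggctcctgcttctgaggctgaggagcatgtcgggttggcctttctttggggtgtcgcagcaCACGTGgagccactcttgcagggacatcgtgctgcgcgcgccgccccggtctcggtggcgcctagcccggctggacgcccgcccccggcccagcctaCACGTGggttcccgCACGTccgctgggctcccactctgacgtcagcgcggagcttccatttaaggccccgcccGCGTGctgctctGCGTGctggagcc
Pgk1: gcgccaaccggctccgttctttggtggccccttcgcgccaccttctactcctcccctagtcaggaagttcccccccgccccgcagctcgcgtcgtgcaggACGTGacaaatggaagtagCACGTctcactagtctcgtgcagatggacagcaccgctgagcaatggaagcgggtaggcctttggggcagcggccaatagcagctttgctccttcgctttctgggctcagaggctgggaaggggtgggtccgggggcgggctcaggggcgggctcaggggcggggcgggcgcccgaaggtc
Ldhb: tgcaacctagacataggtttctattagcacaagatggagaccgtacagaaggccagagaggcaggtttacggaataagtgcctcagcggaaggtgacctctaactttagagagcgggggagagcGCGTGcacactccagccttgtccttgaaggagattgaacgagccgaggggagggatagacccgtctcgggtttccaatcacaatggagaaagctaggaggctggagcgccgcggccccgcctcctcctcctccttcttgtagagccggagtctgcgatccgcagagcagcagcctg
The Slc16a3 promoter held 2 copies of ACGTG, the Ldha promoter 5 of ACGTG and 2 of GCGTG, the Pgk1 promoter 2 of ACGTG, and the Ldhb promoter 1 of GCGTG. The palindrome CACGTG contains ACGTG on both strands and so counts as 2 of these copies. The table held promoters for 36 members, and with 1 promoter each, 26 of these (72.2%) held ACGTG or GCGTG, against 43.8% of all 32851 promoters of the same length. ACGTG alone stood in 41.7% of the members' promoters and 19.6% of all, GCGTG in 55.6% and 32.4%, and CACGTG in 13.9% and 7.15%. Counting any promoter of a gene, either motif was found in 14 of 15 members lower in the untreated APC-deleted line, in 8 of the 9 higher members with a promoter and in 7 of the 11 with a promoter that passed in neither direction. A gene with several promoters has more places for a match, and the 43.8% of single promoters is no background for these counts. The members' promoters were also richer in G and C, with a median GC content of 60.9% against 52.7% for all promoters. A match to these letters describes the sequence and shows no binding.

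Gene counts per library came to between 71970499 and 111948430, and 15006 genes were tested. In the targeted genes, Apc RNA was lower in the untreated APC-deleted line than in the untreated APC-intact line by a log2 fold change of -0.57 ± 0.12 (SE, edgeR adjusted p = 0.00241). Tdo2 had 6 to 29 counts per library over all groups and passed the test in no doxycycline comparison (at 48 h against none, -0.61 ± 0.52 in APC-deleted cells and 0.16 ± 0.45 in APC-intact cells, edgeR adjusted p = 0.494 and 0.856), so the tables do not show a knockdown at this depth. The deposited names carry 1 of 2 tags, each on 9 libraries, and no label says what the tags stand for. Both untreated groups and the APC-intact 24 h group carry tag 1 and the other groups tag 2. Both line comparisons at 0 h and 48 h and the APC-intact 24 h response therefore lie within a tag. The line comparison at 24 h, the other responses against untreated cells and the difference of the 24 h responses lie across tags, where tag and group cannot be told apart. In a principal component analysis, replicate 2 of the APC-deleted 48 h group scored 21.1 on component 3, with the others between -6.23 and 14.2, and replicate 1 of the APC-intact 24 h group scored 14.8 on component 4, with the others between -9.17 and 4.86. These are the 2 libraries that stood apart in the text below. The value 14.2 belonged to replicate 2 of the APC-intact 24 h group, which was kept in every run without those 2. By chi-square per degree of freedom, replicate 2 differed from replicates 1 and 3 of its group by 46.6 and 71.2. Replicates 1 and 3 differed from each other by 27.0, so by this measure replicate 2 was the most deviant of the group. Because these are bulk libraries, fewer cells of a type and less RNA per cell cannot be told apart.

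Per annotated exon length, the members differed by several orders of magnitude. Levels between genes are given as the authors' RPKM (counts scaled to exon length and library total), as the median over all 18 libraries. That exon length can exceed the longest coding transcript, as for Eno1 (5367 against 2027 bases) and Pfkp (9370 against 4145 bases). The order of near levels and the isoform shares per length given below therefore depend in part on the annotated length. Gapdh, glyceraldehyde-3-phosphate dehydrogenase, was the highest at 666 RPKM and Pkm, pyruvate kinase, followed at 594 RPKM. Their ranges, 518 to 790.0 and 415 to 648 RPKM, overlapped. Aldoa at 189 RPKM, Ldha at 181, Tpi1 at 175, Eno1 at 151 and Pgk1 at 113 came next, below the lowest Pkm library in all of theirs, and the libraries of each neighbouring pair in this order overlapped in RPKM. The low end held Pgam2 at 0.85, Aldoc at 0.126 and Slc2a4 at 0.00905 RPKM, the muscle phosphoglycerate mutase, the brain aldolase and the insulin-responsive glucose transporter. Between these ends lay isoforms known from muscle, with Pfkm at 15.6 RPKM beside Pfkl at 17.4, and Eno3 at 12.4. Summed over the 39 genes, the members took 0.907% ± 0.0284, 0.847% ± 0.0282 and 0.837% ± 0.0782 of gene counts in the APC-deleted groups at none, 24 h and 48 h, against 1.10% ± 0.0211, 1.10% ± 0.0366 and 1.08% ± 0.0363 in the APC-intact groups (SD, n = 3 each). Every APC-deleted library lay below every APC-intact library in this share, with 0.936% the highest of the APC-deleted ones and 1.06% the lowest of the APC-intact ones.

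The line comparison asked how the pathway differs with APC deletion. In untreated cells, the genes of the later steps of glycolysis, from aldolase to pyruvate kinase, together with Ldha and the lactate exporter Slc16a3, were lower in APC-deleted than in APC-intact cells, while the transporter Slc2a3, Ldhb and several genes that pass pyruvate to the mitochondrion were higher. Of the 38 members tested, 15 were lower and 11 higher in untreated APC-deleted cells at an edgeR adjusted p under 0.05. That is 68.4% of the members, against 27.3% of all genes tested, with 13.8% of all genes lower and 13.4% higher. At 24 h of doxycycline 14 members were lower and 10 higher (63.2%, against 31.2% of all genes, of which 15.1% were lower and 16.0% higher). At 48 h 15 were lower and 11 higher (68.4%, against 34.7%, with 16.8% lower and 17.8% higher). Without the 2 libraries that stood apart, the counts were 16 lower and 11 higher without doxycycline, 15 and 9 at 24 h and 17 and 10 at 48 h, where 33.0%, 32.8% and 35.2% of all genes were called. The APC-deleted and APC-intact libraries did not overlap in 31 members without doxycycline, 27 at 24 h and 27 at 48 h, where 49.2%, 42.0% and 44.6% of all genes did not overlap. The median log2 fold change of the members was 0.02, -0.04 and -0.06 at none, 24 h and 48 h, near 0 with members in both directions, and that of all genes was between -0.01 and 0.00. The members were also counted more deeply than most genes, with a median of 8219 counts per library against 1998 for all genes tested, and smaller differences pass the test at higher counts.

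These 3 line comparisons share no library, but they compare the same 2 lines and use the same estimate of the spread. Agreement between their calls is therefore not independent. Of the members tested, 23 (60.5%) were called in the same direction in all 3, 14 lower and 9 higher, against 19.7% of all genes tested, and 0 members were called in opposite directions. The 14 that were lower each time were Slc2a1, Hk1, Pfkl, Aldoa, Tpi1, Gapdh, Pgk1, Pgam1, Eno1, Eno3, Pkm, Ldha, Slc16a3 and Pdk1. The 9 that were higher each time were Slc2a3, Pfkfb1, Pfkfb3, Bpgm, Ldhb, Pdk2, Pdha1, Pdp1 and Mpc1. Hk2, Pfkm, Eno2 and Pdhb were called in 1 or 2 of the comparisons, and 11 members in none: Slc2a4, Gpi1, Pfkp, Pfkfb2, Pfkfb4, Aldoc, Pgam2, Slc16a1, Pdk3, Dlat and Mpc2.

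**Figure D1:**
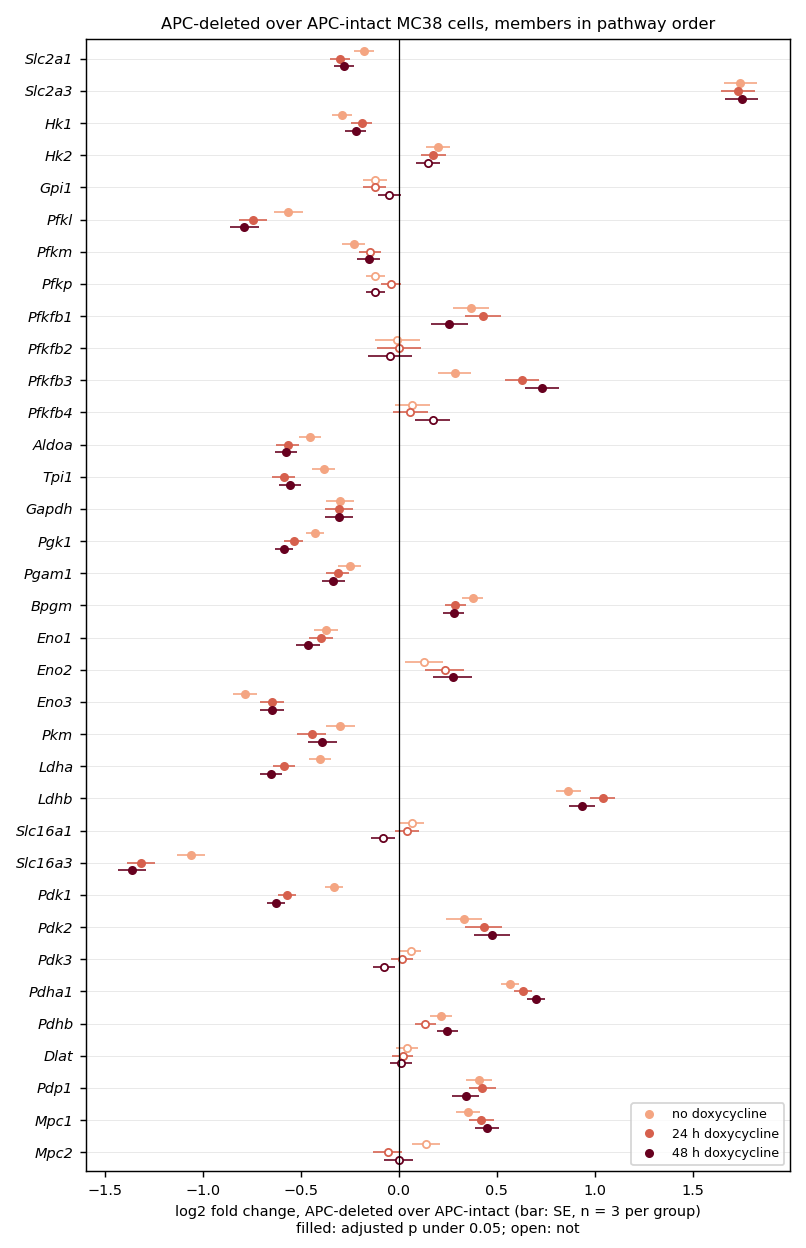
Log2 fold change of APC-deleted over APC-intact cells for the members by pathway order, without doxycycline and at 24 h and 48 h of doxycycline, as edgeR estimates ± SE (bars, n = 3 per group), filled where the adjusted p was under 0.05; Slc2a4, Aldoc and Pgam2 (at most 122 counts in any library) and the untested Pdk4 are left out. Slc2a3 sits near 1.74 and Slc16a3 between -1.06 and -1.36, with most enzymes from Aldoa to Ldha below 0 and Ldhb and Pdha1 above it in all 3 conditions.

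RNA of a minor glucose transporter was higher in APC-deleted cells, and RNA of the main one was lower. Slc2a3 (chromosome 6, 122727809 to 122801640 on mm10, minus strand) encodes GLUT3, a high-affinity glucose transporter known from neurons. Its counts scaled to library size (CPM) were 18.8, 20.5 and 20.2 in untreated APC-deleted cells, 18.4, 17.3 and 18.3 at 24 h and 19.6, 17.4 and 20.3 at 48 h, against 5.85, 5.59 and 6.30, then 5.26, 4.86 and 6.09, then 5.36, 6.19 and 5.47 in APC-intact cells. Every APC-deleted library was far above every APC-intact one, and doxycycline time made little difference within a line. The log2 fold changes were 1.74 ± 0.086, 1.73 ± 0.086 and 1.75 ± 0.086 at none, 24 h and 48 h (edgeR adjusted p = 5.01e-12, 5.73e-12 and 4.67e-12), a level 3.35, 3.32 and 3.36 times that of APC-intact cells. Slc2a1, which encodes GLUT1, the main transporter of most dividing cells, went the other way by less, with log2 fold changes of -0.18 ± 0.051, -0.30 ± 0.051 and -0.28 ± 0.051. Per length, Slc2a1 still made up 93.7%, 94.4% and 93.8% of the summed RPKM of Slc2a1 and Slc2a3 in APC-deleted cells, against 98.3%, 98.6% and 98.4% in APC-intact cells. Of the hexokinases, which trap glucose as its phosphate, Hk1 was lower at each time (log2 fold change -0.29, -0.19 and -0.22) and Hk2, the isoform known to be raised in tumours, was higher without doxycycline (0.20 ± 0.062) and at 24 h (0.18 ± 0.062) and not called at 48 h (0.15 ± 0.062, edgeR adjusted p = 0.0676). The untreated Slc2a1 and Hk2 calls each lost their threshold without some single libraries, at edgeR adjusted p up to 0.0854 for Slc2a1 without APC-deleted replicate 3 (0.0754 without APC-intact replicate 1) and 0.131 for Hk2 without APC-intact replicate 2 (0.0627 and 0.0657 without APC-deleted replicates 2 and 3). The 24 h Hk2 call was lost without each of the 3 APC-deleted libraries (0.0825, 0.162 and 0.0579) and without APC-intact replicate 1 (0.167).

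Phosphofructokinase commits sugar to glycolysis, and its isoforms differed between lines. Pfkl (chromosome 10, 77986947 to 78010083, minus strand), the liver-type subunit, had 85.1, 79.1 and 82.4 CPM in untreated APC-deleted cells and 124, 119 and 122 CPM in untreated APC-intact cells. At 48 h it had 61.6, 81.0 and 70.6 CPM in APC-deleted cells and 119.5, 127 and 122 CPM in APC-intact cells. No APC-deleted library reached the lowest APC-intact one at any time. The log2 fold changes were -0.56 ± 0.073, -0.75 ± 0.073 and -0.79 ± 0.074 at none, 24 h and 48 h (edgeR adjusted p = 6.88e-06, 1.52e-07 and 6.45e-08). Pfkm, the muscle-type subunit, was lower by less (-0.23 and -0.15 at none and 48 h, and -0.15 at 24 h, edgeR adjusted p = 0.0599). Its 48 h call stood at an adjusted p of 0.043 and was lost without 5 of the 6 libraries compared, at up to 0.19 without APC-intact replicate 1. Pfkp, the platelet-type subunit, was not called (-0.12, -0.04 and -0.12).

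The PFKFB enzymes set the level of fructose-2,6-bisphosphate, the activator of phosphofructokinase. Pfkfb3 (chromosome 2, 11471430 to 11502101, minus strand), the isoform whose kinase activity far outweighs its phosphatase activity, had 22.0, 26.0 and 24.6 CPM in untreated APC-deleted cells, against 20.3, 19.7 and 19.5 CPM in untreated APC-intact cells. At 48 h it had 23.3, 20.1 and 22.3 CPM in APC-deleted cells, against 13.99, 12.7 and 12.9 CPM in APC-intact cells. The groups did not overlap at either time, and they stood furthest apart at 48 h. The log2 fold changes were 0.28 ± 0.084, 0.63 ± 0.085 and 0.73 ± 0.086 at none, 24 h and 48 h (edgeR adjusted p = 0.0159, 1.07e-05 and 1.59e-06). The untreated call was lost without APC-deleted replicate 2 (0.0675) or 3 (0.0527). Pfkfb1 was higher by 0.37, 0.43 and 0.26, the last lost without APC-deleted replicate 2 or 3 (0.0876 and 0.0922) or APC-intact replicate 1 or 3 (0.183 and 0.0981), and Pfkfb2 and Pfkfb4 were not called, at -0.04 to 0.17.

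The enzymes of the later steps, with Gapdh and Pkm the most abundant members of all, were lower in APC-deleted cells together. Pgk1 (chromosome X, 106187100 to 106203699, plus strand), phosphoglycerate kinase, which makes the first ATP returned by the pathway, had 291, 296 and 289 CPM in untreated APC-deleted cells and 384, 411 and 384 CPM in untreated APC-intact cells. Aldoa (chromosome 7, 126795234 to 126800751, minus strand), aldolase A, which splits fructose-1,6-bisphosphate, had 608, 603 and 590.2 CPM against 835, 835 and 798 CPM. Tpi1 (chromosome 6, 124810586 to 124814296, minus strand), the isomerase that joins both triose branches, had 386, 399 and 382 CPM at 24 h in APC-deleted cells, against 556, 629 and 571 CPM in APC-intact cells at 24 h. In all 3 sets the APC-deleted libraries lay wholly below the APC-intact ones. The log2 fold changes at none, 24 h and 48 h were -0.43 ± 0.047, -0.54 ± 0.047 and -0.59 ± 0.047 for Pgk1 (edgeR adjusted p = 7.53e-07, 2.79e-08 and 8.07e-09) and -0.45 ± 0.058, -0.57 ± 0.058 and -0.58 ± 0.058 for Aldoa (edgeR adjusted p = 6.00e-06, 2.67e-07 and 2.02e-07). Tpi1 gave -0.39 ± 0.057, -0.59 ± 0.057 and -0.56 ± 0.057 (edgeR adjusted p = 3.55e-05, 1.28e-07 and 2.68e-07).

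The other main enzymes of this stretch, Gapdh, Pgam1 (phosphoglycerate mutase), Eno1 (enolase) and Pkm, had log2 fold changes between -0.25 and -0.46 over the 3 comparisons and were called lower each time. Gpi1, the isomerase upstream of phosphofructokinase, was not called (-0.12, -0.12 and -0.05). The less abundant isoforms did not all follow. Eno3 (chromosome 11, 70657202 to 70662513, plus strand), the muscle enolase, had 23.8, 22.2 and 22.1 CPM in untreated APC-deleted cells, against 39.1, 39.9 and 38.4 CPM in untreated APC-intact cells. The APC-deleted level was thus far below the APC-intact one, at log2 fold changes of -0.79 ± 0.062, -0.65 ± 0.062 and -0.65 ± 0.062 at none, 24 h and 48 h (edgeR adjusted p = 6.10e-09, 1.02e-07 and 9.04e-08). Eno2, the neuronal enolase, had 0.13, 0.23 and 0.27 and was called higher at 48 h alone, a call lost without 4 of the 6 libraries compared (edgeR adjusted p up to 0.175, without APC-deleted replicate 2). Bpgm, which makes 2,3-bisphosphoglycerate, the regulator of oxygen release in red cells, was higher by 0.38, 0.29 and 0.28.

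**Figure D2:**
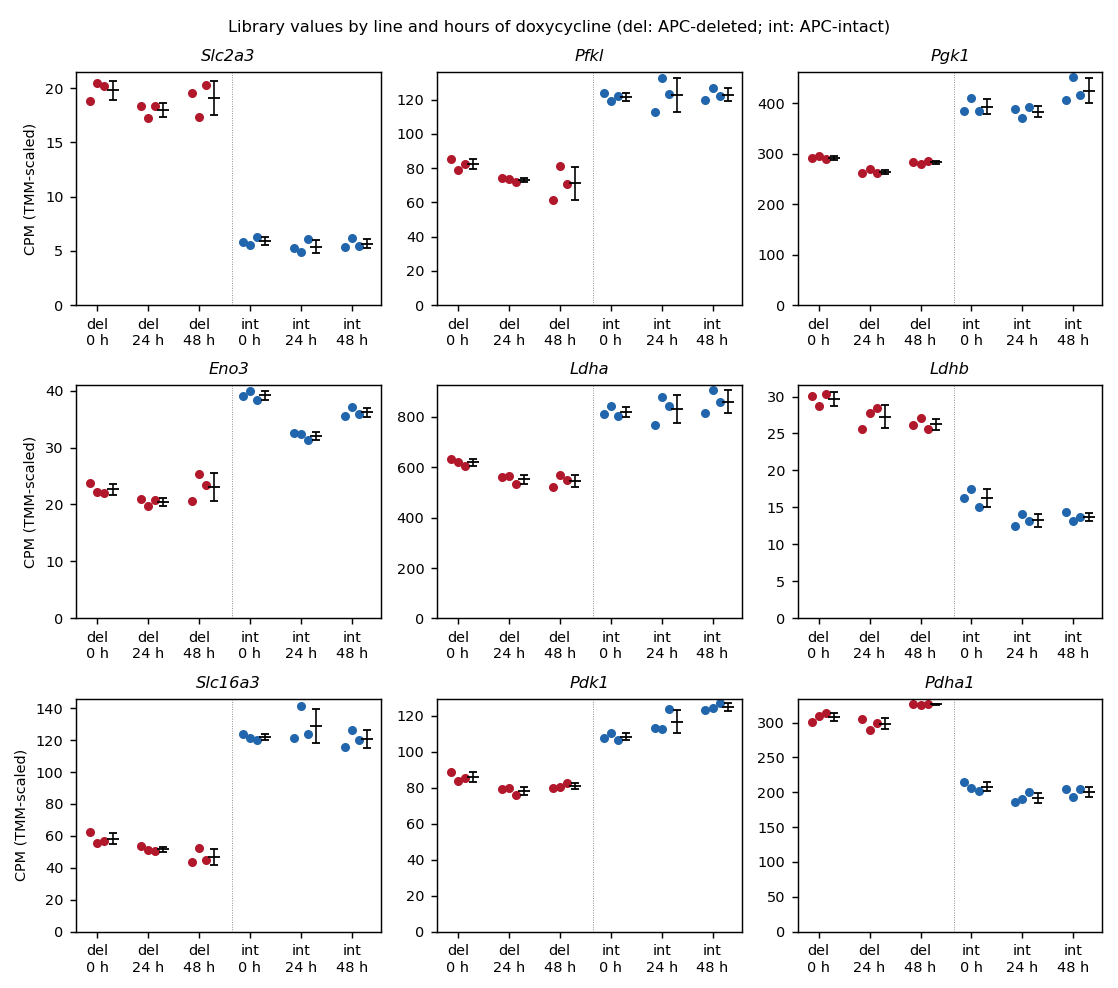
TMM-scaled CPM of 9 members in each of the 18 libraries (dots), with the group mean ± SD in black, for APC-deleted cells and then APC-intact cells at none, 24 h and 48 h of doxycycline; each axis starts at 0. Slc2a3, Ldhb and Pdha1 are higher in every APC-deleted library than in any APC-intact one, and Pfkl, Pgk1, Eno3, Ldha, Slc16a3 and Pdk1 are lower.

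At the lactate end, the genes for lactate production and export were lower in APC-deleted cells and the gene for the heart-type subunit was higher. Slc16a3 (chromosome 11, 120948480 to 120960868, plus strand) encodes MCT4, the monocarboxylate transporter known for exporting lactate from glycolytic cells. It had 62.4, 55.4 and 57.0 CPM in untreated APC-deleted cells, 53.5, 50.9 and 50.5 at 24 h and 43.4, 52.7 and 44.7 at 48 h, against 124, 121 and 120.3, then 122, 141 and 124, then 116, 126 and 119.9 CPM in APC-intact cells. The highest APC-deleted library was well below the lowest APC-intact one. The log2 fold changes were -1.06 ± 0.071, -1.32 ± 0.071 and -1.36 ± 0.072 at none, 24 h and 48 h (edgeR adjusted p = 5.13e-10, 1.98e-11 and 1.31e-11), so that the APC-deleted level was 0.479, 0.401 and 0.388 times the APC-intact one. Slc16a1, which encodes the more widely expressed transporter MCT1, was not called, at 0.07, 0.04 and -0.08.

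Ldha (chromosome 7, 46841475 to 46855627, plus strand) encodes the muscle-type subunit of lactate dehydrogenase, and Ldhb (chromosome 6, 142490249 to 142507957, minus strand) the heart-type one, which favours the oxidation of lactate. Ldha had 633, 621 and 604 CPM in untreated APC-deleted cells and 809.7, 844 and 804 CPM in untreated APC-intact cells, and at 48 h 520.5, 568 and 550.5 CPM against 815, 906 and 857 CPM. Ldhb had 30.04, 28.6 and 30.4 CPM in untreated APC-deleted cells and 16.3, 17.5 and 15.1 CPM in untreated APC-intact cells, and at 48 h 26.1, 27.1 and 25.6 CPM against 14.3, 13.2 and 13.7 CPM. The subunit genes thus differed in opposite directions, with no overlap of libraries in either. For Ldha the log2 fold changes were -0.40 ± 0.055, -0.59 ± 0.055 and -0.65 ± 0.055 at none, 24 h and 48 h (edgeR adjusted p = 1.36e-05, 8.01e-08 and 1.73e-08), and for Ldhb 0.86 ± 0.065, 1.04 ± 0.066 and 0.93 ± 0.066 (edgeR adjusted p = 3.27e-09, 2.19e-10 and 1.16e-09).

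Per length, Ldha remained the main subunit gene in both lines. Ldhb made up 8.36%, 8.59% and 8.38% of the summed RPKM of both in APC-deleted cells at none, 24 h and 48 h, against 3.64%, 2.95% and 2.96% in APC-intact cells. Slc16a3 made up 19.1%, 17.1% and 15.8% of the summed RPKM of Slc16a1 and Slc16a3 in APC-deleted cells, against 34.0%, 34.7% and 31.1% in APC-intact cells. These shares are descriptions and were not tested.

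**Figure D3:**
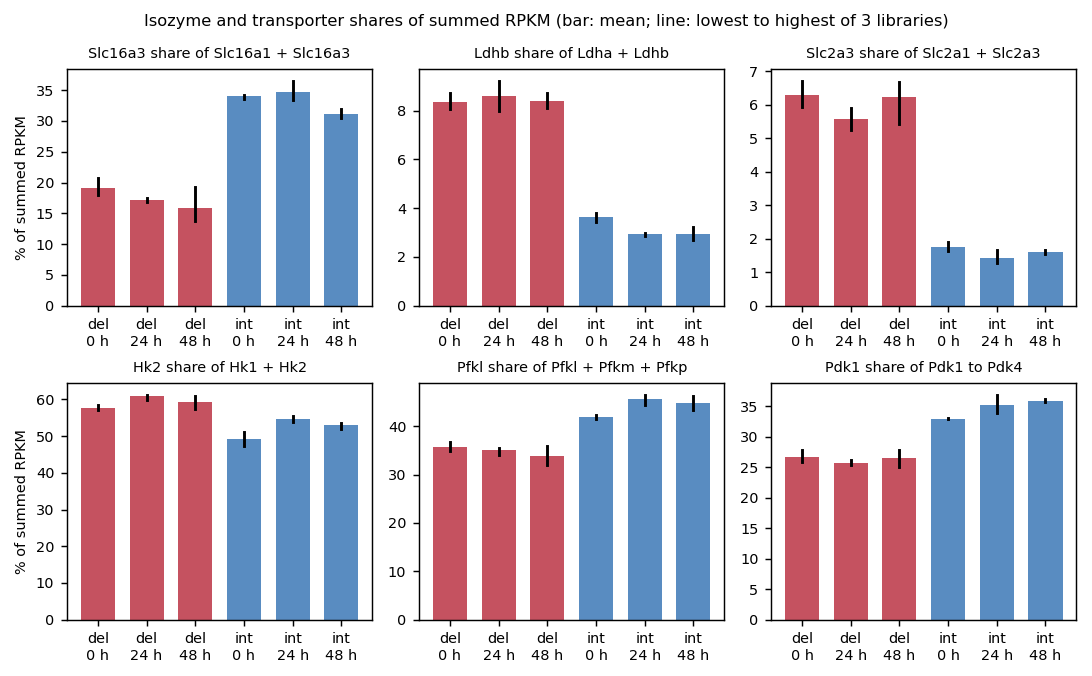
Share of 1 isoform in the summed RPKM of its step, in percent, for APC-deleted and APC-intact cells at none, 24 h and 48 h of doxycycline; bars are means of 3 libraries and lines run from the lowest to the highest. The share of Slc16a3 is lower in APC-deleted cells (19.1% against 34.0% without doxycycline) and that of Ldhb higher (8.36% against 3.64%).

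The genes that govern the entry of pyruvate into mitochondrial oxidation differed as well. Pdha1 (chromosome X, 160122209 to 160138413, minus strand), the alpha subunit of the first enzyme of the pyruvate dehydrogenase complex, had 301, 309 and 313 CPM in untreated APC-deleted cells, 305, 289.7 and 299 at 24 h and 326, 326 and 327 at 48 h, against 214, 207 and 202, then 186, 189.7 and 200.5, then 204, 193 and 205 CPM in APC-intact cells. The lines did not overlap at any time. The log2 fold changes were 0.57 ± 0.045, 0.63 ± 0.045 and 0.70 ± 0.045 at none, 24 h and 48 h (edgeR adjusted p = 6.30e-09, 1.20e-09 and 2.63e-10). Pdk1 (chromosome 2, 71873224 to 71903858, plus strand), the kinase that shuts the complex off and a known HIF-1 target, had 88.7, 83.7 and 85.4 CPM in untreated APC-deleted cells, against 108, 110.3 and 106 CPM in untreated APC-intact cells. At 48 h it had 79.6, 80.1 and 82.5 CPM against 123, 124 and 127 CPM, again with no overlap. Its log2 fold changes were -0.33 ± 0.046, -0.57 ± 0.046 and -0.63 ± 0.046 at none, 24 h and 48 h (edgeR adjusted p = 1.60e-05, 8.45e-09 and 2.27e-09).

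The other kinases did not follow Pdk1. Pdk2 was higher by 0.33, 0.43 and 0.47 on the log2 scale, the first of these lost without APC-intact replicate 3 (edgeR adjusted p = 0.0555), and Pdk3 was not called (0.06, 0.02 and -0.08). Per length Pdk3 held the largest share of the summed RPKM of Pdk1 to Pdk4, with 61.8%, 61.8% and 60.5% in APC-deleted cells and 58.1%, 56.3% and 56.0% in APC-intact cells. Pdk1 held 26.7%, 25.6% and 26.5% in APC-deleted cells, against 33.0%, 35.1% and 35.8% in APC-intact cells. Pdp1, the phosphatase that turns the complex back on, was higher by 0.41, 0.43 and 0.34, and Mpc1, a subunit of the mitochondrial pyruvate carrier, by 0.35, 0.42 and 0.45. Its partner Mpc2 was not called (0.14, -0.06 and -0.00), nor was Dlat, the second enzyme of the complex (0.04, 0.02 and 0.01). Pdhb, the beta subunit, was higher without doxycycline and at 48 h (0.21 and 0.25) and not called at 24 h (0.13, edgeR adjusted p = 0.0698).

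Some of these genes share sequence with processed pseudogenes and paralogs, and reads that mapped to more than 1 place were left out of the gene counts in the deposited tables. The 50-base windows of the longest coding transcript were searched, on both strands, in transcripts of other annotated genes. The share found there was 82.5% for Gapdh, 72.2% for Eno1, 68.0% for Pgk1, 41.5% for Pgam1, 34.4% for Pkm and 30.3% for Pdhb. For Mpc1 it was 29.6%, for Ldhb 27.0%, for Gpi1 25.3%, for Pfkfb2 25.1%, for Ldha 16.6%, for Aldoa 13.5% and for Tpi1 7.51%. It was 0 for Slc2a3, Slc16a3, Eno3 and Pdk1 and 0.0543% for Pfkl. Levels of the first group are therefore uncertain and may be too low. Pfkm, Pfkp, Pfkfb1, Pfkfb2, Tpi1 and Pdha1 overlap a counted gene on the opposite strand (Senp1, Pitrm1, Apex2, Yod1, Spsb2 and Map3k15). The window shares of Pfkp (17.1%) and Pdha1 (16.9%) include windows of these overlapping partners, where a read can still map to 1 place. Map3k15 averaged 14.1 counts per library, against 23670 for Pdha1. Slc2a1, Hk1, Hk2, Gpi1, Pdk2 and Mpc1 also overlap genes on the opposite strand, which averaged up to 31.8 counts per library (Gm12868, at Slc2a1). Whether counting used the strand is not given in the sources used here, so reads of these pairs cannot be told apart with certainty.

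Genes around the members were read from 6 companion lists. Their counts stand against 27.3%, 31.2% and 34.7% of all genes called between the lines at none, 24 h and 48 h. In untreated APC-deleted against APC-intact cells, the pentose phosphate list, which covers the branch that makes NADPH and ribose, had 4 higher and 1 lower of 12 tested, then 6 higher and 0 lower at 24 h and again at 48 h. Prps1 and Prps2, which make phosphoribosyl pyrophosphate, were higher by 0.79 ± 0.050 and 0.66 ± 0.076 on the log2 scale without doxycycline (edgeR adjusted p = 2.27e-10 and 1.24e-06). Pgd and Taldo1, of the oxidative and the non-oxidative arm, were higher by 0.32 and 0.23, whereas G6pdx, which opens the branch, was the 1 that was lower (-0.15 ± 0.051, edgeR adjusted p = 0.0402). The medians of this list were 0.17, 0.16 and 0.19. The glycogen list had 3 higher and 2 lower of 12 without doxycycline, among them Gbe1 (the branching enzyme, 0.49) and Gys1 (glycogen synthase, -0.28), then 2 and 2 at 24 h and 3 and 3 at 48 h. Its share at 24 h, 33.3%, was near that of all genes. The list of other glycolytic and pyruvate genes had 1 higher (Pcx, pyruvate carboxylase, 0.25) and 1 lower (Me2, malic enzyme, -0.14) of 21 without doxycycline, below the background share, and 3 and 3 at each later time. The gluconeogenesis list had 2 lower of 3 tested in each comparison, Pck2 (-0.21 without doxycycline) and the nearly silent Fbp2 (0.303 and 0.970 CPM in APC-deleted and APC-intact cells).

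Of 17 HIF targets outside glycolysis tested, 8 were lower and 1 higher in APC-deleted cells without doxycycline, against 13.8% of all genes lower and 13.4% higher. At 24 h and at 48 h 11 were lower and 0 higher, against 15.1% and 16.8% of all genes lower. Their medians were -0.20, -0.24 and -0.25. Bhlhe40, a transcriptional repressor, had a log2 fold change of -0.51 ± 0.043 without doxycycline (edgeR adjusted p = 1.69e-08), and Ddit4, an inhibitor of mTORC1, one of -0.39 ± 0.092 (edgeR adjusted p = 0.00365). At 24 h Bnip3, a mitophagy receptor, had -0.56 ± 0.080 (edgeR adjusted p = 1.76e-05). RNA of Hif1a itself was not called, with -0.05 ± 0.081, 0.05 ± 0.081 and -0.04 ± 0.081 at none, 24 h and 48 h (edgeR adjusted p = 0.721, 0.719 and 0.715). Myc was not called without doxycycline (0.06 ± 0.063, edgeR adjusted p = 0.516) and was higher at 48 h (0.21 ± 0.063, edgeR adjusted p = 0.0121). In the regulator list, 3 were higher and 1 lower of 12 tested without doxycycline, and 5 and 1 at each later time. Txnip, which restrains glucose uptake and responds to glucose itself, averaged 53.4 ± 8.89 CPM in untreated APC-deleted cells and 24.0 ± 2.92 CPM in untreated APC-intact cells (SD, n = 3 each), and its log2 fold changes were 1.16 ± 0.12 without doxycycline and 1.30 ± 0.12 at 24 h, with a 3.04-fold level at 48 h. Prkaa2, a catalytic subunit of the energy sensor AMPK, was higher by 1.29 ± 0.13 (edgeR adjusted p = 6.83e-07). The 1 regulator called lower each time was the nearly silent Ppargc1a, a coactivator of mitochondrial genes, with mean levels of 0.00346, 0.00633 and 0.0247 CPM in APC-deleted cells at none, 24 h and 48 h, against 0.179, 0.240 and 0.316 CPM in APC-intact cells (edgeR adjusted p = 0.000187, 5.56e-05 and 0.000167). Arnt, the partner of HIF-1 alpha, was higher by 0.16 ± 0.058 without doxycycline (edgeR adjusted p = 0.0443).

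Markers of other cell types were read in the same libraries. The defining epithelial genes Cdx2, at 0 in every library, and Epcam, at up to 0.0115 CPM, were absent or nearly so, in both lines of a tumour labelled as colon adenocarcinoma. Krt8 (0.881 to 3.87 CPM), Lgals4 (0.992 to 3.51 CPM) and Cdh1 (0.610 to 1.89 CPM) were found at low levels. The summed colon epithelium list, of 10 genes, ranged from 5.18 to 7.15 CPM in APC-deleted libraries and from 3.13 to 5.36 CPM in APC-intact libraries, with 1 of 5 tested genes higher and 1 lower without doxycycline. Among haematopoietic markers Adgre1 was at 0 and Ptprc at up to 0.0491 CPM, and their sum, mostly Cd68, was 13.4 to 23.5 CPM in APC-deleted and 10.6 to 17.9 CPM in APC-intact libraries, with 1 of 3 tested higher and 1 lower. Among endothelial markers Kdr, Tek and Emcn were at up to 0.0338 CPM. Cdh5 was at 1.85 to 5.07, Pecam1 at 0.485 to 0.950 and Vwf at 0.300 to 0.749 CPM over all libraries. The sum of the endothelial list was 3.05 to 4.21 CPM in APC-deleted and 5.37 to 6.37 CPM in APC-intact libraries, with 1 of 3 tested lower. The fibroblast list of 8 genes moved with the line. Of 7 tested, 5 were higher in APC-deleted cells in each of the 3 comparisons, against 13.4%, 16.0% and 17.8% of all genes. The sum of the list was 3426 to 4667 CPM in APC-deleted and 2728 to 3722 CPM in APC-intact libraries, with Thy1 at up to 0.0108 CPM. The share of reads in no annotated feature was 4.70% to 6.10% in APC-deleted and 5.25% to 7.01% in APC-intact libraries. The part of either in the line differences of the members was not tested.

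The doxycycline comparisons asked whether switching on the hairpin alters the pathway within a line. In the fit over all 18 libraries, the changes called were small and nearly all were falls, and how many were called depended on the fit. In APC-intact cells at 24 h, 7 of 38 members fell and 0 rose (18.4%, against 5.64% of all genes, of which 4.25% fell and 1.39% rose), and at 48 h 3 fell and 2 rose (13.2%, close to the 11.3% of all genes, of which 7.54% fell and 3.81% rose). In APC-deleted cells 4 fell and 0 rose at 24 h (10.5%, against 5.85%, with 3.77% falling and 2.08% rising), and 8 fell and 0 rose at 48 h (21.1%, against 11.0%, with 6.49% falling and 4.52% rising). Treated and untreated libraries did not overlap in 14, 15, 19 and 13 of the 38 members in these 4 comparisons, where 22.5%, 43.1%, 33.6% and 25.6% of all genes did not overlap. The medians of the members were -0.03, -0.02, -0.12 and -0.09, and those of all genes lay at -0.00 to 0.00. The responses at 24 h and 48 h within a line share their untreated libraries. Which members passed depended on the fit: with the compared groups fitted alone, the counts were 1, 11, 15 and 0 in place of 7, 5, 4 and 8, where that fit called 1.81%, 30.6%, 17.6% and 3.10% of all genes. Without the 2 libraries that stood apart they were 6, 8, 10 and 14, where 5.63%, 19.6%, 10.3% and 19.8% of all genes were called, and with single libraries left out they ran from 2 to 8, 2 to 4, 2 to 3 and 1 to 13. In the APC-deleted 48 h comparison the count was 13 without the 48 h replicate 2 and 1 without the 48 h replicate 3 or the untreated replicate 1. In the APC-intact 24 h comparison it was 2 without untreated replicate 1, 3 without the 24 h replicate 1 or untreated replicate 2 and 4 without untreated replicate 3. In the APC-intact 48 h comparison it was 2 without the 48 h replicate 2 or 3 or untreated replicate 1 and 3 without the 48 h replicate 1 or untreated replicate 2, and in the APC-deleted 24 h comparison it was 2 without any single library except untreated replicate 2, where it was 3.

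In APC-intact cells, Pfkfb3 was the member that fell most. It had 17.1, 13.6 and 15.6 CPM at 24 h and 13.99, 12.7 and 12.9 CPM at 48 h, against 20.3, 19.7 and 19.5 CPM without doxycycline. All treated libraries lay below all untreated ones. The log2 fold change was -0.36 ± 0.085 at 24 h (edgeR adjusted p = 0.0140), lost without untreated replicate 1 (0.0738), and -0.59 ± 0.086 at 48 h (edgeR adjusted p = 0.000119), where it held under every alternative run. Ldhb had 12.5, 14.2 and 13.1 CPM at 24 h and 14.3, 13.2 and 13.7 CPM at 48 h, against 16.3, 17.5 and 15.1 CPM untreated, without overlap. Its log2 fold changes were -0.30 ± 0.066 and -0.25 ± 0.066 (edgeR adjusted p = 0.00986 and 0.0206), and both calls were lost without untreated replicate 1 or 2. The 24 h call was also lost without the 24 h replicate 1 (edgeR adjusted p = 0.0834) and with the compared groups fitted alone (0.124). The 48 h call was also lost without the 48 h replicate 2 (0.0927) or 3 (0.0801). At 24 h, Eno3 had 32.5, 32.4 and 31.3 CPM, against 39.1, 39.9 and 38.4 CPM untreated. It fell by 0.29 on the log2 scale (edgeR adjusted p = 0.00736), the 1 call of this comparison that held under every alternative. The other falls at 24 h were those of Pdp1, Bpgm, Pfkp and Pfkm, by 0.20 to 0.33 on the log2 scale, and all but that of Pdp1 were lost without 4 or 5 of the 6 single libraries (edgeR adjusted p up to 0.286, for Pfkm without the 24 h replicate 1). At 48 h, Pdk1 had 123, 124 and 127 CPM, against 108, 110.3 and 106 CPM untreated, and rose by 0.20 ± 0.046 (edgeR adjusted p = 0.00677), which held under every alternative. Pfkfb2 rose at 48 h by 0.37 ± 0.11, with 17.5, 16.0 and 16.96 CPM against 12.9, 12.1 and 13.9 CPM untreated, and Pfkp fell by 0.18, and both calls were lost without most single libraries (edgeR adjusted p up to 0.153 for Pfkfb2 without untreated replicate 2 and 0.0954 for Pfkp without the 48 h replicate 2).

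In APC-deleted cells, Bpgm had 31.2, 29.7 and 29.7 CPM at 24 h and 33.3, 31.4 and 32.2 CPM at 48 h, against 37.2, 36.4 and 37.5 CPM untreated. Treated libraries lay below untreated ones at both times, with log2 fold changes of -0.29 ± 0.053 and -0.20 ± 0.053 (edgeR adjusted p = 0.00185 and 0.0206), and the 24 h call held under every alternative. Pdp1 had 38.0, 37.2 and 39.5 CPM at 24 h, against 45.7, 45.9 and 50.5 CPM untreated, and fell by 0.31 on the log2 scale (edgeR adjusted p = 0.00943; 0.0609 without untreated replicate 3). Tpi1 had 386, 399 and 382 CPM at 24 h and 365, 419 and 381 CPM at 48 h, against 467, 437 and 465 CPM untreated. It fell by 0.23 on the log2 scale at both times, and Pgam1 by 0.22 at 24 h, and both 24 h calls were lost without 5 of the 6 single libraries (edgeR adjusted p up to 0.163 for Pgam1 and 0.096 for Tpi1). At 48 h Slc16a3 had 43.4, 52.7 and 44.7 CPM, against 62.4, 55.4 and 57.0 CPM untreated, so that replicate 2 lay closest to the untreated libraries. It fell by 0.31 on the log2 scale (edgeR adjusted p = 0.00701; 0.0515 without untreated replicate 1). Pfkfb1, Aldoa, Eno1, Pfkp and Ldha also fell at 48 h, by 0.18 to 0.29 on the log2 scale, each call being lost without 4 or 5 of the 6 single libraries (edgeR adjusted p up to 0.185, for Pfkfb1 without untreated replicate 2). None of the 8 calls of this comparison held under every alternative, since fitted on the compared groups alone each missed the threshold.

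**Figure D4:**
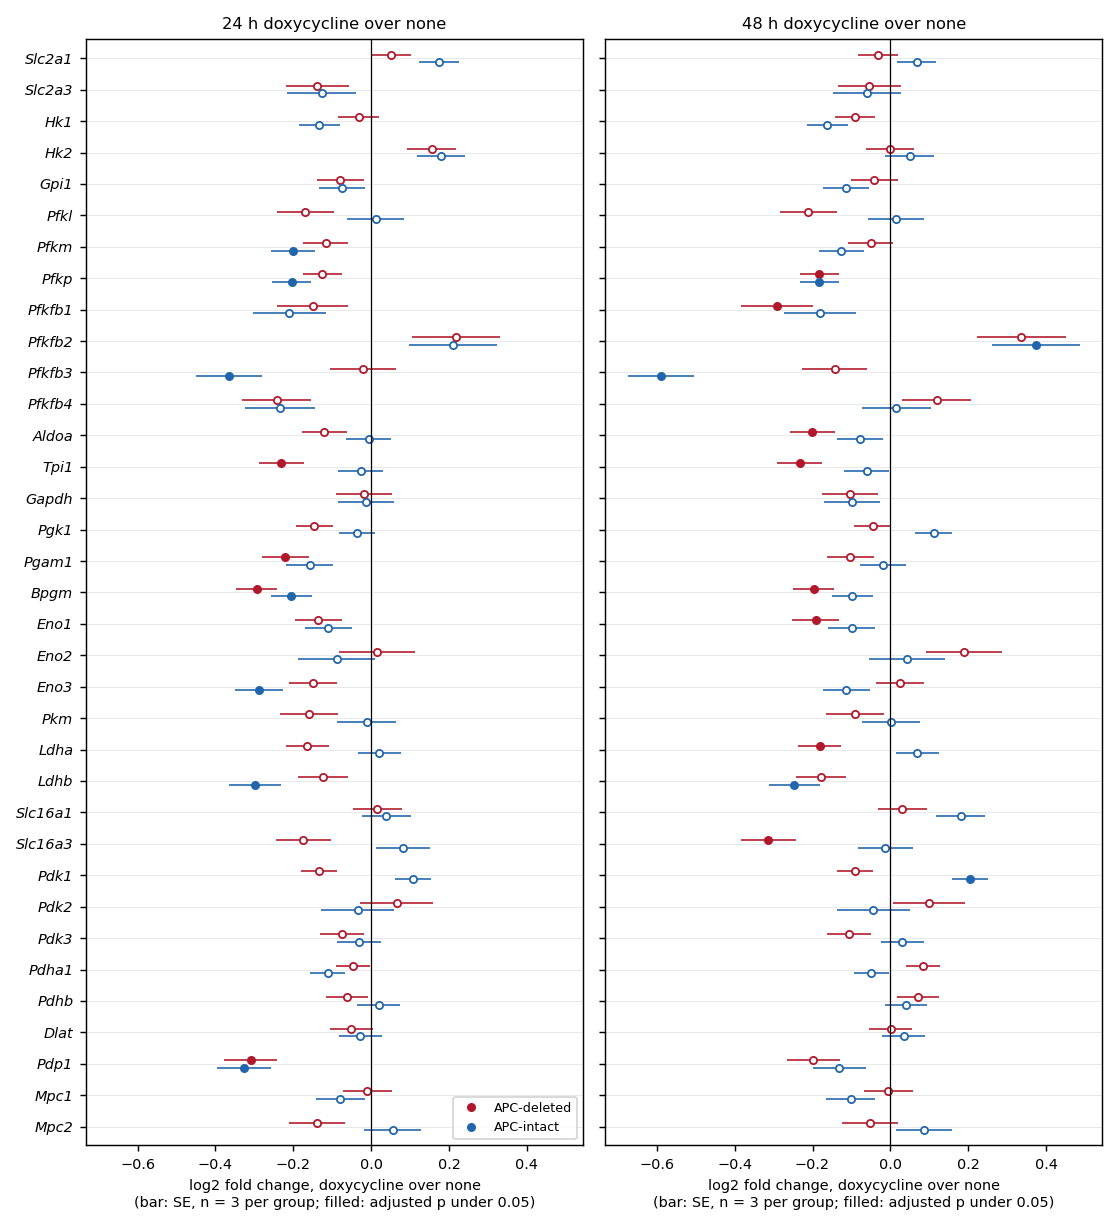
Log2 fold change of doxycycline over none for the members, at 24 h and 48 h in each line, as edgeR estimates ± SE (bars, n = 3 per group), filled where the adjusted p was under 0.05; Slc2a4, Aldoc, Pgam2 and Pdk4 are left out for low counts. Most members lie between -0.3 and 0.3, and Pfkfb3 in APC-intact cells is the lowest at -0.59 at 48 h.

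Values that moved with doxycycline included the fibroblast markers, of which 4 and 6 of 7 tested fell in APC-intact cells at 24 h and 48 h and 5 and 4 in APC-deleted cells, and the mean share of reads in no feature, which was 5.43% and 5.67% at 24 h and 48 h against 4.82% untreated in APC-deleted cells and 6.21% and 6.59% against 5.56% in APC-intact cells. Their part in the responses was not tested. Of all genes, 4.25% and 7.54% fell at 24 h and 48 h in APC-intact cells, and 3.77% and 6.49% in APC-deleted cells. In the same order, 1.39%, 3.81%, 2.08% and 4.52% rose. Of the companion lists, the pentose phosphate list had 3 of 12 lower in APC-intact cells at 24 h and at 48 h, and 0 and 2 in APC-deleted cells, with none higher in these 4 comparisons. In the gluconeogenesis list 2 of 3 were lower at each time in APC-intact cells and 1 of 3 in APC-deleted cells. HIF targets outside glycolysis had 1 higher and 2 lower of 17 at 24 h and 3 and 2 at 48 h in APC-intact cells, and 1 and 1, then 3 and 2, in APC-deleted cells. Between 48 h and 24 h of doxycycline in APC-deleted cells, which carry the same tag, 0 members passed edgeR's test, against 0.52% of all genes, and 6 had an unadjusted p under 0.05, as did 9.02% of all genes. DESeq2 called 1 of them, Pfkfb4, at 0.37 ± 0.093 (DESeq2 adjusted p = 0.0107).

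Whether the lines responded differently was tested as the difference of their responses, APC-deleted minus APC-intact. At 24 h the APC-deleted response lies across tags and the APC-intact one within tag 1, whereas at 48 h both lie across tags in the same way. By edgeR, 0 of 38 members passed at 24 h or 48 h, where 0.00666% and 0.0267% of all genes did, and 6 and 8 members had an unadjusted p under 0.05, as did 4.09% and 7.0% of all genes. DESeq2 called 0 at 24 h and 1 at 48 h. That 1 was Pdk1, with a difference of -0.29 ± 0.063 (DESeq2 adjusted p = 0.00537), and edgeR gave it -0.29 ± 0.065 with a 95% interval from -0.43 to -0.16 (adjusted p = 0.174). For Pfkfb3 the difference at 48 h was 0.45 ± 0.12, with an interval from 0.20 to 0.70 (edgeR adjusted p = 0.327), where its own responses were -0.14 ± 0.084 in APC-deleted cells and -0.59 ± 0.086 in APC-intact cells. Slc16a3 gave -0.30 ± 0.10 (interval -0.51 to -0.09, edgeR adjusted p = 0.513) and Ldha -0.25 ± 0.078 (interval -0.41 to -0.09, edgeR adjusted p = 0.468). These intervals do not span 0 taken 1 gene at a time, and none of the differences passed when adjusted over all genes by edgeR.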

How the data were processed

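Per the submitters' processing notes, STAR and HTSeq were used with the mouse build mm10; versions are not given in the sources used here. Each deposited table gives a whole-number count per gene and an RPKM per gene for 1 library. The authors' RPKM was recomputed from the count, the exon length and the column total for 39178 of 39179 genes; that total includes entries that name no gene (22.9% to 25.5% of it), which entered neither library sizes nor tests. The total of gene counts per library (71970499 to 111948430) limits the precision of the low genes.

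Groups were taken from the sample titles. Counts were fitted with edgeR 4.0.16 (R 4.3.3; TMM factors, filterByExpr by group, robust quasi-likelihood fit, 1 coefficient per group over all 18 libraries), and p-values were Benjamini-Hochberg adjusted over all 15006 genes tested, with a threshold of 0.05. The common biological coefficient of variation was 8.33%. Standard errors are the size of the log2 fold change divided by the root of the F statistic. CPM are counts scaled by TMM-adjusted library sizes. The fitting script was tested on simulated data. Levels between genes use RPKM only. Principal components used log2(CPM + 0.5). Promoters are RefSeq's on GRCm38.p6; shared 50-base windows and gene positions come from GENCODE M21 and the deposited tables.

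Members named with all values were, per comparison, up to 8 that passed, had at least 5 CPM in the higher group and did not overlap between groups, taken by the largest fold change; other members are named by count and range. Up to 4 genes of each companion list were named by the smallest adjusted p; G6pdx, Hif1a, Myc, the values of Pfkfb3, Bpgm, Pdk1, Ldha, Slc16a3 and Pfkfb4 outside this rule, and the genes of the printed promoters were chosen after their values were seen. The members and lists were chosen with earlier results of these data known. Alternatives were DESeq2 1.42.0, RLE factors in edgeR, no filter on low counts, the compared groups alone, a replicate block and each library left out; leaving out both libraries that stood apart was added after seeing the data. No pair of replicates agreed within sampling noise (chi-square per degree of freedom 7.47 to 75.2).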

Additional observations from a re-analysis of the deposited data

How the results depend on the processing

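The counts of members called in the 3 line comparisons stayed within 1.5 times the reported value under every alternative run. With single libraries left out they were 23 to 26 without doxycycline, 23 to 25 at 24 h and 23 to 26 at 48 h, and 22 of 26, 23 of 24 and 23 of 26 calls held under all alternatives. The doxycycline counts moved. Fitted alone, the compared groups gave 1 in place of 7 (APC-intact, 24 h) and 11 in place of 5 (APC-intact, 48 h). They gave 15 in place of 4 (APC-deleted, 24 h) and 0 in place of 8 (APC-deleted, 48 h). In this order, 1.81%, 30.6%, 17.6% and 3.10% of all genes were called. That fit estimates the spread from fewer samples, whereas the fit over all 18 libraries shares its estimate across all groups. By chi-square per degree of freedom, replicates differed by up to 71.2 in APC-intact 24 h and 75.2 in APC-deleted 48 h. In the other groups they differed by at most 26.07. The counts fell where APC-intact 24 h or APC-deleted 48 h was compared and rose where neither was. The part of the spread in this was not tested. Without both libraries that stood apart the counts were 8 for APC-intact 48 h, 10 for APC-deleted 24 h and 14 for APC-deleted 48 h. There, 19.6%, 10.3% and 19.8% of all genes were called. DESeq2 gave 7 for APC-deleted 24 h and 1 for 48 h against 24 h in APC-deleted cells. It gave 1 for the difference of the 48 h responses. The cause of these shifts was not tested. With single libraries left out the counts were 2 to 8 (APC-intact, 24 h), 2 to 4 (APC-intact, 48 h), 2 to 3 (APC-deleted, 24 h), 1 to 13 (APC-deleted, 48 h), 0 to 1 (48 h against 24 h) and 0 for both differences of responses. Calls that held under all alternatives were 1 of 7, 2 of 5, 1 of 4 and 0 of 8. Over 1200 values of called members under an alternative, 1074 kept the call, 126 missed the threshold and 0 turned sign. Deviations of same-numbered replicates correlated at -0.0884 to 0.237, which neither shows nor excludes that the numbers pair the samples. With a replicate block the counts were 26, 24 and 26 for the lines, where 28.4%, 32.2% and 35.8% of all genes were called. They were 8, 6, 5 and 10 for the responses in the order above, where 6.43%, 14.5%, 6.58% and 12.0% of all genes were called, and 0 for the others. Low counts limit Slc2a4, Aldoc and Pgam2, where differences were not detectable at this depth.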
